A study of Arabidopsis thaliana with 10 samples.

Results

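Leaf damage and methyl jasmonate (MeJA) were compared directly at equal time. One side of the comparison held the 2 arrays of leaves wounded for 60 min, 1 from wild-type Col-0 Arabidopsis and 1 from the RNAi line Ri17. The other side held the 2 arrays of Col-0 and Ri17 treated with 100 µM MeJA for 1 h. These 4 arrays were chosen by their labels from the 10 arrays of the series. The remaining arrays held untreated Col-0 and Ri17, both genotypes 30 min after wounding, and both after 4 h of MeJA. Ri17 carries an RNAi construct against JAV1 and stands for that genotype as a single line. JAV1 itself had no named probe set and was not analysed here, so the knockdown was not checked.

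All plants were 21 days old and were raised in MS medium. For wounding, forceps were closed across the midrib of 4 rosette leaves, so that some 30% of the blade was crushed. The labels call the tissue of every array leaves, while the design text has MeJA given to seedlings in medium. Mock-treated plants were not part of the samples analysed here, so the handling that went with MeJA and the hormone cannot be told apart. Each genotype and condition had 1 array, and nothing in the labels says whether any array pooled plants. The p-values therefore measure the spread between arrays after genotype and condition were taken out. Any real difference between Col-0 and Ri17 in their response is counted in that spread. Variation between repeated arrays of the same genotype and condition was not measured.

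Methyl jasmonate is taken up and turned into jasmonic acid and its isoleucine conjugate, the form that the receptor COI1 binds. COI1 then marks JAZ repressors for breakdown, which frees MYC factors to switch on target genes, among them the genes of jasmonate synthesis. Crushing a leaf makes the plant produce jasmonate by itself. It also opens cells, sends calcium and electrical signals and oxidants through the tissue, dries the cut surface and bends the cell walls, so a wounded leaf sees the hormone among several other signals.

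Signals are given as log2 of the deposited array intensity, with every value under 37.7 raised to that floor, which is 5.24 on the log2 scale. A difference is the log2 signal in wounded leaves minus that with MeJA, averaged over both genotypes, with its standard error (SE) from limma's fit over all 10 arrays. A probe set was called at an adjusted p under 0.05 (limma, Benjamini-Hochberg, two-sided, over 15382 probe sets). Where an array of the lower side sat at the floor, the difference is a bound and is written "at least".

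The MeJA arrays stood apart in their spiked-in RNAs. Over 24 poly-A control probe sets, which report bacterial RNAs that the array protocol adds to the sample, the mean log2 signal was 9.54 to 9.75 on the 4 MeJA arrays and 8.90 to 9.19 on the other 6 arrays. All 24 were lower on both arrays wounded for 60 min than on both arrays with MeJA for 1 h, by a mean of 0.65 in Col-0 and 0.75 in Ri17. Over 18 hybridization control probe sets, which report RNAs added after labelling, wounded arrays were higher by a mean of 0.14 in Col-0 and 0.16 in Ri17. Over 19 probe sets for Arabidopsis control genes the mean difference was 0.01 and 0.05. Scaling the arrays to the poly-A controls therefore moved every difference up by about the size of that gap. The labels give no batch. A difference in array processing between the MeJA arrays and the other 6 cannot be told apart from the treatment. In these controls the untreated arrays lay with the wounded ones, so this holds for every difference between MeJA and untreated as well.

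**Figure D1:**
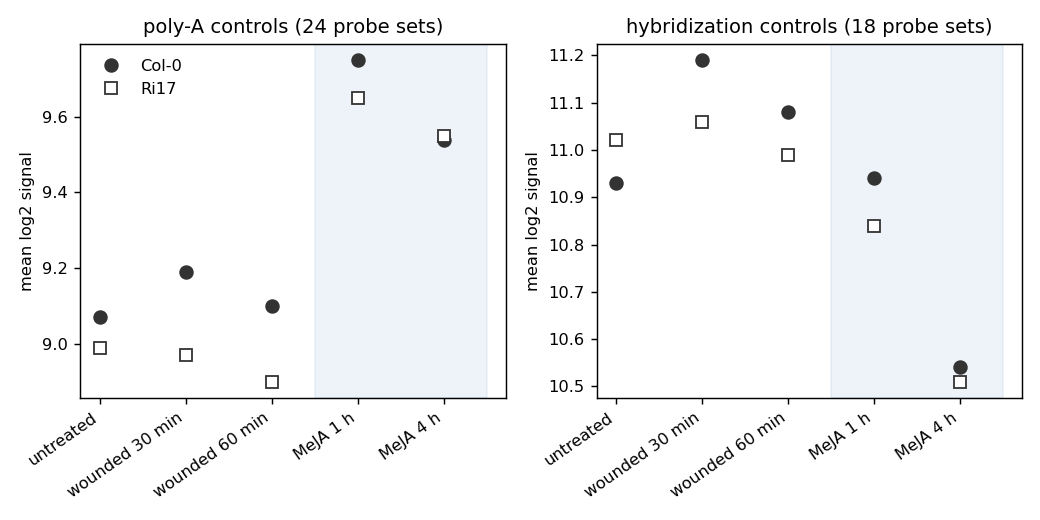
Mean log2 signal (y axis) of the 24 poly-A and the 18 hybridization control probe sets on each of the 10 arrays (x axis, conditions; filled points Col-0, open points Ri17; MeJA conditions shaded). The poly-A controls lie between 9.54 and 9.75 on the MeJA arrays and between 8.90 and 9.19 on all others.

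Tissue markers also differed between the sides. Of the 9 root marker genes with a named probe set, 4 passed the detection filter, and the summed signal of all 9 was 6690 to 9444 on the MeJA arrays, 2513 to 3036 on the wounded arrays and 3026 to 3143 on the untreated arrays. SUC1 had the highest signal of the 9 on every array and so weighed most in this sum. PYK10, a root-abundant beta-glucosidase of ER bodies, and the sucrose carrier SUC1 were the 2 members called higher with MeJA, by 2.73 and 1.32. PYK10 was no longer called without either MeJA 1 h array (−3.15 and −2.30) or the wounded Col-0 array (−1.70), nor SUC1 under poly-A scaling (−0.62). The root-hair expansins EXPA7 and EXPA18, the root epidermis factor WER and the root genes XTH26 and AGL21 were called Present on 0 arrays. NRT2.1, the root nitrate transporter, was at the floor on all 4 MeJA arrays and at 7.31 to 7.59 on the arrays wounded for 60 min. The 9 shoot apex and dividing-cell genes summed to 693 to 727 on MeJA arrays, 1347 to 2582 on wounded arrays and 2491 to 2582 on untreated arrays. Only 3 of these 9 passed the detection filter, and CLV1 had the highest signal of the 9 on every array. CLV1, a shoot meristem receptor kinase, was higher by 1.84 ± 0.26 (SE, 2 arrays against 2, adjusted p = 0.00236, limma) in wounded leaves. MCM7 (1.07) and AUR1 (−0.40) were not called, and WUS, CLV3, KNAT1, CUC2 and ANT were Present on 0 arrays. The 12 nuclear photosynthesis genes, markers of green leaf, summed to 195082 to 298628 with wounding and 169370 to 256323 with MeJA, and 0 of 12 were called (limma, 1 at an unadjusted p under 0.05), while under poly-A scaling 5 were called higher in wounded leaves. In bulk tissue fewer cells of a type and less RNA per cell cannot be told apart, and the part of tissue composition in the differences below was not tested.

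Of 15382 probe sets tested, 5304 were called (34.5%), with 2184 higher in wounded leaves (14.2%) and 3120 lower (20.3%). Large differences were more often on the wounding side. At 3 or more on the log2 scale, 349 called probe sets were higher in wounded leaves and 83 were lower, and at 4 or more the counts were 148 and 20. The median of all differences was −0.16, and the split of small differences followed the scaling. Centring arrays on their medians gave 2555 higher and 2254 lower, centring on hybridization controls gave 1869 and 4152, and centring on poly-A controls gave 6036 and 864. Under all 5 scalings 1848 probe sets (12%) were called higher and 864 (5.62%) lower, and 963 and 673 of these were also called with each of the 10 arrays left out. Single arrays also moved the counts. Without the Ri17 array with MeJA for 1 h 1140 were called higher and 943 lower, without the Col-0 one 1282 and 1427, and without the Ri17 array wounded for 60 min 1413 and 1581.

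**Figure D2:**
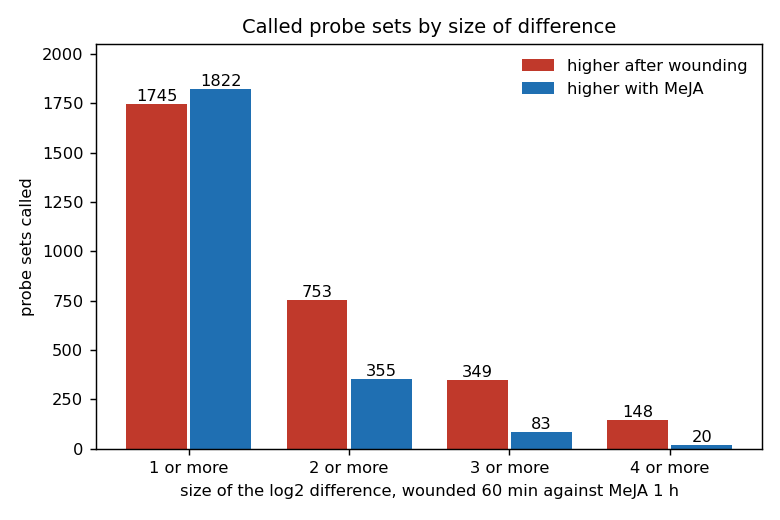
Number of probe sets called higher in wounded leaves and lower in wounded leaves (y axis) at or past each size of the log2 difference (x axis). At 3 or more the wounded side holds 349 and the MeJA side 83.

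Among the 12 genes with the largest positive differences were defence and calcium genes whose signal lay near the floor with MeJA. PR2, a beta-1,3-glucanase that marks salicylate-dependent defence, had log2 signals of 13.28 in wounded Col-0 and 14.48 in wounded Ri17, against 5.44 and 5.24 with MeJA and 13.37 and 12.94 without treatment. The wounded and untreated leaves were alike high and both MeJA arrays were at or near the floor. PR2 was therefore at least 8.54 higher in wounded leaves (adjusted p = 0.000152, limma), and had fallen by at least 7.81 with MeJA against untreated. The calmodulin-like gene CML40 showed another pattern, with 12.04 and 13.23 in wounded leaves, 5.26 and 5.47 with MeJA and 8.53 and 8.54 untreated. CML40 rose with wounding, fell with MeJA and differed by 7.27 ± 0.33 (adjusted p = 0.000107, limma). PUB19, a U-box ubiquitin ligase, was at 12.19 and 12.86 when wounded, 5.79 and 5.92 with MeJA and 10.67 and 10.88 untreated. Its difference of 6.67 ± 0.27 came from a rise of 1.75 with wounding and a fall of 4.92 with MeJA.

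The AP2-domain factor gene AT4G28140 was at 12.59 and 12.72 in wounded leaves, at the floor on both MeJA arrays and at 6.13 and 6.48 untreated. It rose by 6.35 with wounding, and its level in wounded leaves exceeded that with MeJA by at least 7.42. The other genes among these 12 were AT3G05730 (6.54), AT5G18470 (at least 6.20), the calcium-binding-like gene AT1G21550 (6.16), AT1G20070 (5.87), AT1G67920 (at least 5.81), the RING-finger gene AT2G42360 (at least 5.73), AT1G49450 (at least 5.49) and AT1G76960 (at least 5.45). All 12 calls held under each of the 5 scalings and with each array left out. Untreated leaves held high levels of several of them: AT3G05730 was at 12.23 and 12.81 untreated, 12.77 and 12.14 wounded, and 5.39 and 6.45 with MeJA. For that gene the wounded and untreated arrays overlapped and MeJA stood alone.

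**Figure D3:**
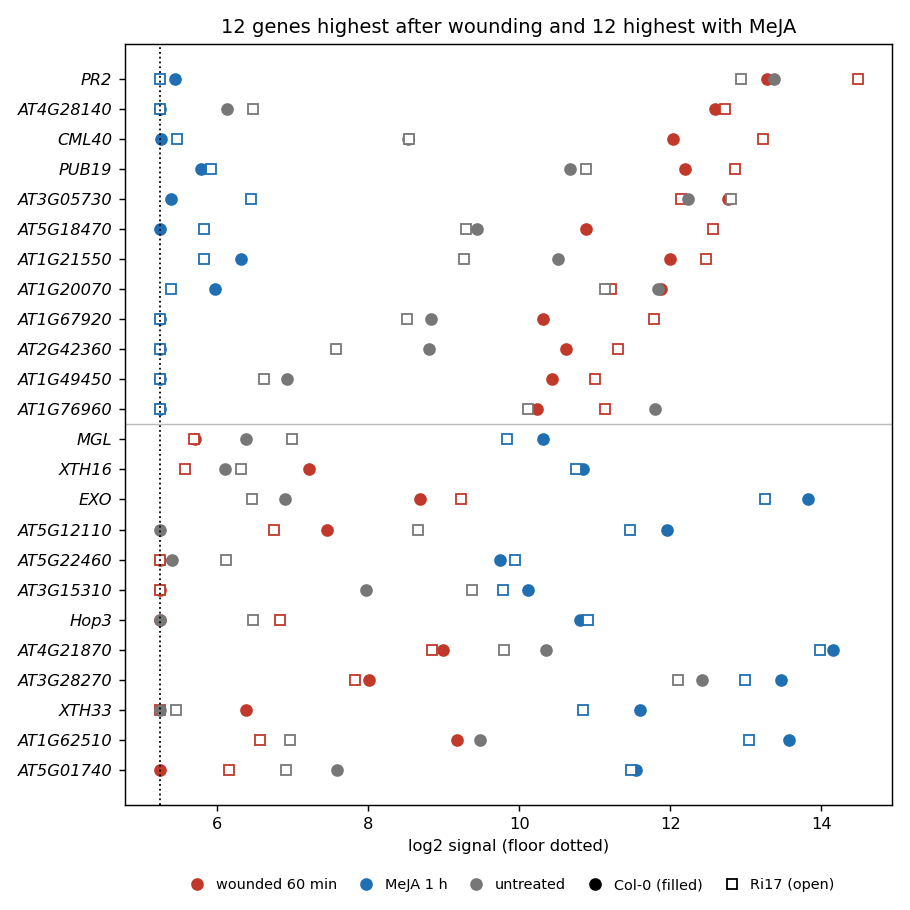
Log2 signal (x axis) of the 12 genes with the highest and the 12 with the lowest difference in each of the 2 arrays wounded for 60 min, the 2 with MeJA for 1 h and the 2 untreated arrays (points). For PR2 the wounded and untreated points lie at 12.94 or above while both MeJA points lie at or near the floor of 5.24.

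Early wound and calcium genes were higher in crushed leaves as a list. Of the 22 measured members, 15 (68.2%) were higher in wounded leaves, against 13.7% of all named genes, 2 were lower and 5 were not called, with a median difference of 2.24 against −0.15 over all named genes. Under poly-A scaling 18 were higher and 1 lower. With the Ri17 array with MeJA for 1 h left out, 12 were higher and 1 lower, and 1 was lower without either Col-0 array of the comparison. Against untreated leaves 18 members rose and 0 fell with wounding, where 12.1% of all probe sets rose and 16.1% fell (28.2% either way). With MeJA 10 rose and 6 fell, where 15.7% of all probe sets rose and 15.8% fell (31.5% either way).

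The calmodulin-like genes in the list, whose products bind calcium, differed among themselves. CML37 was at 9.43 and 10.74 in wounded leaves, 5.50 and 5.24 with MeJA and 5.24 and 5.35 untreated, at least 4.72 higher in wounded leaves (adjusted p = 0.000256, limma). It rose with wounding and stayed near the floor with MeJA. CML38 was at 12.28 and 12.68 wounded, 9.59 and 10.01 with MeJA and 5.28 and 5.47 untreated. It rose with both treatments, by 7.10 with wounding and 4.42 with MeJA, and the difference was 2.68 ± 0.19. VQ12, whose VQ-motif protein binds WRKY factors, followed CML38, with 13.02 and 13.15 wounded, 9.17 and 9.75 with MeJA and 5.58 and 5.24 untreated, a difference of 3.62 ± 0.24. WRKY6, a defence and senescence factor, moved in opposite ways: 8.66 and 9.28 wounded, 5.57 and 5.42 with MeJA, 7.33 and 7.06 untreated. It rose by 1.77 and fell by 1.70, giving a difference of 3.48 ± 0.24.

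The stress zinc-finger factors ZAT12 and STZ were higher in wounded leaves by 2.62 ± 0.34 and 2.23 ± 0.34, and the ethylene-response factor ERF6 by 2.24 ± 0.27. ERF6 read 9.34 and 8.84 wounded, 7.40 and 6.29 with MeJA and 5.24 on both untreated arrays. All 3 of these calls held under every scaling and with each array left out. TCH4, a touch-induced xyloglucan enzyme, was one of the 2 members that were lower in wounded leaves, by 2.12 ± 0.34. It rose by 4.55 with wounding and by 6.66 with MeJA. MKK4, a MAP kinase kinase, differed by 0.10 ± 0.30 and PUB23, a U-box ligase, by 0.15 ± 0.31, neither called.

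Salicylate-side defence genes were mostly higher in wounded leaves than with MeJA. Against untreated, 1 of 7 rose and 0 fell with wounding, where 12.1% of all probe sets rose and 16.1% fell. With MeJA 0 rose and 3 fell, where 15.7% of all probe sets rose and 15.8% fell. Of these 7 measured members 5 (71.4%) were higher in wounded leaves than with MeJA and 0 lower, against 13.7% and 19.9% of all named genes, with a median of 3.40. Under the other 4 scalings 5 or 6 were higher and 0 lower. The list entry RPS2 was matched to a probe set named rps2, a symbol of a chloroplast ribosomal protein gene, and may not report the resistance gene. It is counted among the 7, was not called (0.17), and was the added call under poly-A scaling (0.87). Leaving out the Ri17 array with MeJA for 1 h gave 4 higher. EDS1, a lipase-like protein at the head of resistance signalling, was at 9.76 and 10.66 wounded, 6.66 and 5.64 with MeJA and 9.42 and 9.61 untreated. EDS1 fell by 3.37 with MeJA and was not called with wounding (0.70), so that the difference was 4.06 ± 0.51 (adjusted p = 0.00159, limma). SAG101, a partner of EDS1, was higher by 2.08 ± 0.29. GRX480, a glutaredoxin that binds TGA factors, rose by 4.37 with wounding instead. It was at 11.79 and 12.51 wounded, 8.31 and 7.80 with MeJA and 7.09 and 8.48 untreated, a difference of 4.10 ± 0.46. ICS1, the main enzyme of salicylate synthesis, was higher by 3.40 ± 0.58 (adjusted p = 0.00503), but without the Ri17 array with MeJA for 1 h the value was 3.10 and the adjusted p 0.0556. RPM1, a resistance receptor, differed by 0.02 ± 0.25 and was not called.

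Probe sets were also grouped by words in the array's descriptions. The groups and the examples were chosen after their values were seen, and of all probe sets 14.2% were higher in wounded leaves and 20.3% lower. Of 26 WRKY factors, 16 were higher in wounded leaves and 0 lower (median 1.70), and under each other scaling 15 to 20 were higher and 0 lower. The largest difference among these 26 was 3.78. WRKY53, a senescence and defence factor of the early wound and calcium list, was not among the 26. It was at 9.57 and 11.88 wounded, 5.24 and 5.54 with MeJA and 9.85 and 9.09 untreated, at least 5.34 higher in wounded leaves. Of 19 glutaredoxins, small thiol oxidoreductases, 13 were higher and 0 lower (median 1.69). Against untreated, 9 of those 19 fell with MeJA and 0 rose, while 3 rose and 1 fell with wounding. Of all probe sets 15.8% fell and 15.7% rose with MeJA, and 12.1% rose and 16.1% fell with wounding. AT2G47880 of that family was at 10.49 and 10.50 wounded, 5.24 and 6.22 with MeJA and 10.53 and 10.71 untreated. Its wounded arrays lay beside the untreated ones, and both MeJA arrays lay well under them.

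Of 147 probe sets described as disease resistance proteins, 59 were higher in wounded leaves (40.1%) and 9 lower (6.12%), against 14.2% and 20.3% of all probe sets, with a median of 0.69. Of these 147, 54 fell and 11 rose with MeJA against untreated, where 15.8% of all probe sets fell and 15.7% rose. With wounding 23 rose and 19 fell, where 12.1% of all probe sets rose and 16.1% fell. Under poly-A scaling 106 were higher and 4 lower. The count of higher ones was 32 to 35 without the Ri17 or the Col-0 array with MeJA for 1 h or without the wounded Ri17 array, against 59 with all arrays, and 4 to 7 were lower. Of 41 chitinases and glucanases, enzymes that attack fungal walls or plant callose, 14 were higher (34.1%) and 4 lower, and with single arrays left out 9 to 16 were higher and 1 to 6 lower. The chitinase-like gene AT4G01700 was at 9.74 and 11.34 wounded, 6.34 and 6.60 with MeJA and 9.24 and 9.67 untreated, a difference of 4.07 ± 0.40. Of 27 NAC factors 11 were higher (40.7%) and 1 lower, and of 32 glutathione transferases, detoxifying enzymes, 12 were higher (37.5%) and 1 lower. These shares stand against the same 14.2% of all probe sets. Without the Ri17 MeJA 1 h array 5 NAC factors and 6 glutathione transferases were higher.

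Several cold and drought genes were higher in wounded leaves. Of 12 measured members of the abscisic acid and cold list 6 were higher and 1 lower, against 13.7% and 19.9% of all named genes, with a median of 1.34, and under poly-A scaling 10 were higher and 1 lower. COR15B, a chloroplast protein of cold acclimation, was at 11.48 and 12.20 wounded, 7.13 and 7.40 with MeJA and 7.17 and 8.47 untreated. It rose by 4.02 with wounding, and the difference was 4.58 ± 0.32 (adjusted p = 0.000196, limma). RD29A, a dehydration and cold gene, was at 12.82 and 13.22 wounded, 9.48 and 9.63 with MeJA and 7.87 and 8.60 untreated, a difference of 3.47 ± 0.33. In both genes the 2 wounded arrays lay above all of the other 4. DREB2A, a drought and heat factor counted in the heat shock list, differed by 4.28 ± 0.36, with 10.32 and 11.57 wounded and 6.70 and 6.62 with MeJA. ABI1 and ABI2, phosphatases that hold back abscisic acid signalling, were higher by 2.65 ± 0.22 and 2.06 ± 0.22. RAB18, an abscisic acid-induced dehydrin, ran the other way, with 8.50 and 8.64 wounded and 10.80 and 10.46 with MeJA, 2.06 ± 0.29 lower in wounded leaves.

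In phenylpropanoid synthesis, which feeds lignin, 5 of 9 measured genes (55.6%) were higher in wounded leaves, against 13.7% of all named genes, with a median of 1.86. The 2 lower (22.2%) were near the 19.9% of all named genes. Without the Ri17 array with MeJA for 1 h or without the wounded Ri17 array, 3 were higher and 0 lower, without the Col-0 array with MeJA for 1 h 4 and 1, and under poly-A scaling 7 and 0. PAL1, the entry enzyme, was at 11.81 and 12.07 wounded, 9.30 and 9.07 with MeJA and 10.83 and 11.87 untreated, a difference of 2.76 ± 0.39. C4H, the following enzyme, and HCT, which acts toward lignin, were each 1.86 higher, with SEs of 0.26 and 0.20. For both, the untreated arrays lay near the wounded ones, and MeJA lowered C4H by 1.71 and HCT by 1.49. CAD8 and CCR2, of the last steps toward lignin alcohols, were higher by 2.80 ± 0.67 and 1.90 ± 0.42. CCR2 lost its call without the Ri17 array with MeJA for 1 h (1.38) and without the wounded Ri17 array (1.63). CAD8 lost its call with either MeJA 1 h array (2.34 to 3.27) or the wounded Ri17 array (2.04) left out. CAD7, whose sign was opposite (−1.50 ± 0.32), lost its call without the same 3 arrays (−1.07 to −1.55) and under poly-A scaling (−0.81).

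In the list of cell wall loosening genes, more members were higher with MeJA than in wounded leaves. Of 19 measured members 10 (52.6%) were lower in wounded leaves, against 19.9% of all named genes, and 3 were higher, with a median of −1.38. Under poly-A scaling 8 were lower and 4 higher, with a median of −0.68. Leaving out the Ri17 array with MeJA for 1 h gave 7 lower and 2 higher. XTH33, a xyloglucan endotransglucosylase that cuts and rejoins wall xyloglucan, was at 6.38 and 5.24 wounded, 11.60 and 10.85 with MeJA and 5.24 and 5.45 untreated. It rose by 5.88 with MeJA, and wounded leaves were lower by at least 5.41 (adjusted p = 0.000378, limma). XTH16 followed it, with 7.22 and 5.58 wounded, 10.85 and 10.75 with MeJA and 6.10 and 6.31 untreated, a difference of −4.40 ± 0.43. In both genes the wounded arrays lay near the untreated ones, and both MeJA arrays lay well above.

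Another wall gene rose with both treatments. EXO, a cell-expansion gene known as a target of brassinosteroid, was at 8.68 and 9.23 wounded, 13.82 and 13.25 with MeJA and 6.90 and 6.46 untreated. It rose by 2.28 with wounding and by 6.85 with MeJA, a difference of −4.58 ± 0.29. The xyloglucan enzyme XTH23 differed by −2.55 ± 0.46, the expansin-like EXLA2 by −2.53 ± 0.28 and EXLA1 by −1.56 ± 0.20. Some expansins, wall-loosening proteins, went the other way. EXPA4 was at 9.13 and 8.94 wounded, 5.80 and 6.02 with MeJA and 9.72 and 10.81 untreated, and was 3.12 ± 0.33 higher in wounded leaves. EXPA8 was likewise higher, by 2.06 ± 0.33. Both fell with MeJA, EXPA4 by 4.35 and EXPA8 by 2.83. Of 25 xyloglucan enzymes found by description, 12 were lower in wounded leaves, against 20.3% of all probe sets, and 1 higher, and under poly-A scaling 7 were lower and 5 higher. With the Ri17 or the Col-0 MeJA 1 h array or the wounded Ri17 array left out, 5 to 7 were lower. The 15 expansin probe sets found by description did not share this direction. Of these, 4 were higher in wounded leaves (26.7%, against 14.2% of all probe sets) and 1 lower (6.67%). Against untreated, 2 of them rose and 5 fell with MeJA, where 15.7% and 15.8% of all probe sets did. Of the root markers given above, PYK10 and SUC1 were also higher with MeJA, while NRT2.1 was higher in wounded leaves by 2.22 and SHR was not called (−0.18). The part of tissue composition in the result was not tested.

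The 12 genes with the largest negative differences included chaperones beside the wall genes XTH33, XTH16 and EXO. AT5G01740, described as similar to a wound-induced protein, was at 5.24 and 6.15 wounded, 11.55 and 11.48 with MeJA and 7.58 and 6.91 untreated, at least 5.82 lower in wounded leaves. The small heat shock gene AT4G21870 was at 8.99 and 8.84 wounded, 14.16 and 13.98 with MeJA and 10.35 and 9.80 untreated. It fell by 1.16 with wounding and rose by 4.00 with MeJA, a difference of −5.16 ± 0.21 (adjusted p = 9.42e-05, limma). Hop3, which links HSP70 to HSP90, was at 5.24 and 6.83 wounded, 10.80 and 10.91 with MeJA and 5.24 and 6.48 untreated, at least 4.82 lower in wounded leaves. The others were the proline-rich AT1G62510 (−5.43), the At14a-like AT3G28270 (−5.31), AT3G15310 (at least 4.71 lower), AT5G22460 (at least 4.61 lower), the elongation factor gene AT5G12110 (−4.60) and MGL, a methionine-breaking lyase (−4.38). AT5G12110 lost its call without the Ri17 array with MeJA for 1 h (−5.11, adjusted p = 0.0521), without the Col-0 one (−4.09) and without the wounded Ri17 array (−3.96). The calls of the other 11 held under every scaling and with each array left out.

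In the heat shock list 4 of 7 measured genes were lower in wounded leaves, against 19.9% of all named genes, and 1, DREB2A, was higher. Without the Col-0 array with MeJA for 1 h or without the wounded Col-0 array, 2 were lower. HSP70 was at 8.87 and 11.29 wounded, 14.08 and 13.88 with MeJA and 9.53 and 11.34 untreated, a difference of −3.90 ± 0.57 (adjusted p = 0.00263, limma). The wounded arrays lay near their untreated partners of the same genotype, and Ri17 was higher than Col-0 in both conditions. ROF2, a heat-induced immunophilin, showed the same order, with 7.21 and 8.72 wounded, 11.46 and 11.26 with MeJA and 6.92 and 8.20 untreated, a difference of −3.39 ± 0.43. HSP101, the disaggregase, was lower by 2.24 ± 0.49 but lost its call without the Col-0 array with MeJA for 1 h (−1.82) or without the wounded Col-0 array (−1.44). BOB1, a chaperone-like protein needed for heat tolerance, was lower by 1.27 ± 0.30 and lost its call with either of those arrays (−1.02 and −0.84) or the Ri17 array with MeJA for 1 h (−1.53) left out, and under poly-A scaling (−0.58). The small heat shock genes HSP17.6A and HSP17.6II were not called between the treatments, at −0.76 ± 0.53 and 0.19 ± 0.35. Of 83 chaperone probe sets found by description, 29 were lower (34.9%) and 12 higher (14.5%), against 20.3% and 14.2% of all probe sets, and under poly-A scaling this turned to 10 lower and 20 higher. Without the Col-0 array with MeJA for 1 h 10 were lower, and without the Ri17 one 19.

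No difference was called at 1 h among the genes that make jasmonate. Of 5 measured synthesis genes 0 were called in the direct comparison by limma, and 0 had an unadjusted p under 0.05. Intervals given here are unadjusted. LOX2, the lipoxygenase at the start of the pathway, was at 14.70 and 14.40 wounded, 14.58 and 14.54 with MeJA and 12.48 and 13.13 untreated, a difference of −0.01 (95% interval −0.65 to 0.62). AOS, the allene oxide synthase, differed by 0.22 (−0.35 to 0.79). OPR3, the OPDA reductase, was at 14.92 and 14.62 wounded, 14.53 and 14.46 with MeJA and 10.32 and 11.29 untreated, a difference of 0.27 (−0.45 to 1.00). All treated arrays lay above both untreated arrays for LOX2 and OPR3. OPCL1, which activates the precursor for beta-oxidation, differed by 0.26 (−0.24 to 0.76), and AIM1, a beta-oxidation enzyme, by 0.32 (−0.13 to 0.78). This depended on the scaling: centring on poly-A controls moved the median of these 5 from 0.26 to 0.96 and called 4 of them higher in wounded leaves.

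Jasmonate regulators did differ. ORA47, an AP2 factor that switches on jasmonate synthesis genes, was at 10.80 and 10.73 wounded, 7.17 and 6.89 with MeJA and 6.41 and 6.85 untreated. Both wounded arrays lay far above the other 4, with a difference of 3.73 ± 0.22 (adjusted p = 0.000145, limma). MYC4, one of the MYC factors that JAZ proteins hold back, was at 7.17 and 6.66 wounded, 9.17 and 9.33 with MeJA and 11.38 and 10.64 untreated. It fell by 4.10 with wounding and by 1.76 with MeJA, a difference of −2.33 ± 0.30. The fall with MeJA was no longer called without the Col-0 array with MeJA for 1 h (−1.59), while the difference between the treatments was called with each array left out. MYC3 differed by 0.44 (95% interval −0.41 to 1.30) and was not called, though under poly-A scaling it was (1.14). COI1 was called at −0.73 ± 0.21 (adjusted p = 0.0343), but the call was lost with any of 8 arrays left out (−0.54 to −0.91) and under 3 of the other scalings (−0.03 under poly-A scaling).

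Among genes that turn jasmonate over, JOX2, an oxidase that hydroxylates jasmonic acid, was at 13.55 and 13.27 wounded, 13.60 and 13.54 with MeJA and 8.35 and 8.36 untreated. It rose by 5.05 with wounding and 5.21 with MeJA, all treated arrays lay far above the untreated ones, and no difference between the treatments was called (−0.16, 95% interval −0.63 to 0.31). Its relatives went in opposite directions, with JOX3 higher in wounded leaves by 3.21 ± 0.67 and JOX4 lower by 1.41 ± 0.35. JOX3 lost its call when either MeJA 1 h array was left out (2.78 and 3.64), and when the wounded Ri17 array was (2.53). JOX4 lost its call with any of the 4 compared arrays left out (−1.29 to −1.53) and under poly-A scaling (−0.71). JMT, which methylates jasmonic acid, was not called (0.77, 95% interval 0.02 to 1.52), but was called higher in wounded leaves under poly-A scaling (1.47) and with either MeJA 4 h array left out (0.77, adjusted p = 0.0289, limma).

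Of 10 measured output genes, 4 were higher in wounded leaves and 5 lower, against 13.7% and 19.9% of all named genes, and under poly-A scaling 5 and 3. With the Ri17 array with MeJA for 1 h left out 1 was higher and 3 were lower, and with the Col-0 one left out 3 were lower. BSMT1, which makes methyl salicylate and methyl benzoate, was at 8.33 and 8.95 wounded, 11.94 and 11.97 with MeJA and 5.24 on both untreated arrays. It rose with both treatments, by 3.40 and 6.72, and was 3.31 ± 0.37 lower in wounded leaves. UGT76E12, a glycosyltransferase, had the opposite order, with 11.47 and 11.56 wounded, 8.31 and 8.87 with MeJA and 5.24 and 5.39 untreated, a difference of 2.92 ± 0.49. VSP1, a vegetative storage protein and classical jasmonate marker, was at 12.71 and 12.62 wounded, 14.55 and 14.42 with MeJA and 8.32 and 10.02 untreated. Its difference of −1.82 ± 0.47 lost its call under poly-A scaling (−1.12) and without the Col-0 MeJA 1 h array (−1.45), the Ri17 MeJA 1 h array (−2.19) or the wounded Ri17 array (−1.47). JAL23, a jacalin-like lectin, was lower by 1.22 ± 0.21, and under poly-A scaling by 0.52, no longer called. THI2.1, a thionin, was not called at 0.11 (95% interval −0.55 to 0.77), and was called at 0.81 under poly-A scaling.

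PDF1.2 and PDF1.2b, defensins of the ethylene and jasmonate branch, were higher in wounded leaves by 1.91 ± 0.39 and at least 2.68. Both calls were lost without the Ri17 array with MeJA for 1 h (2.0 and 2.24), and PDF1.2 also without the Col-0 one (1.81) and PDF1.2b without the wounded Col-0 array (2.22). PHO1;H10, of the PHO1 transporter family, was higher by 1.95 ± 0.34, and by 1.66 without the Ri17 array with MeJA for 1 h, where it was no longer called. PYK10, also a member of this list, was lower by 2.73 ± 0.73 and lost its call without either MeJA 1 h array (−3.15 and −2.30) or without the wounded Col-0 array (−1.70).

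**Figure D4:**
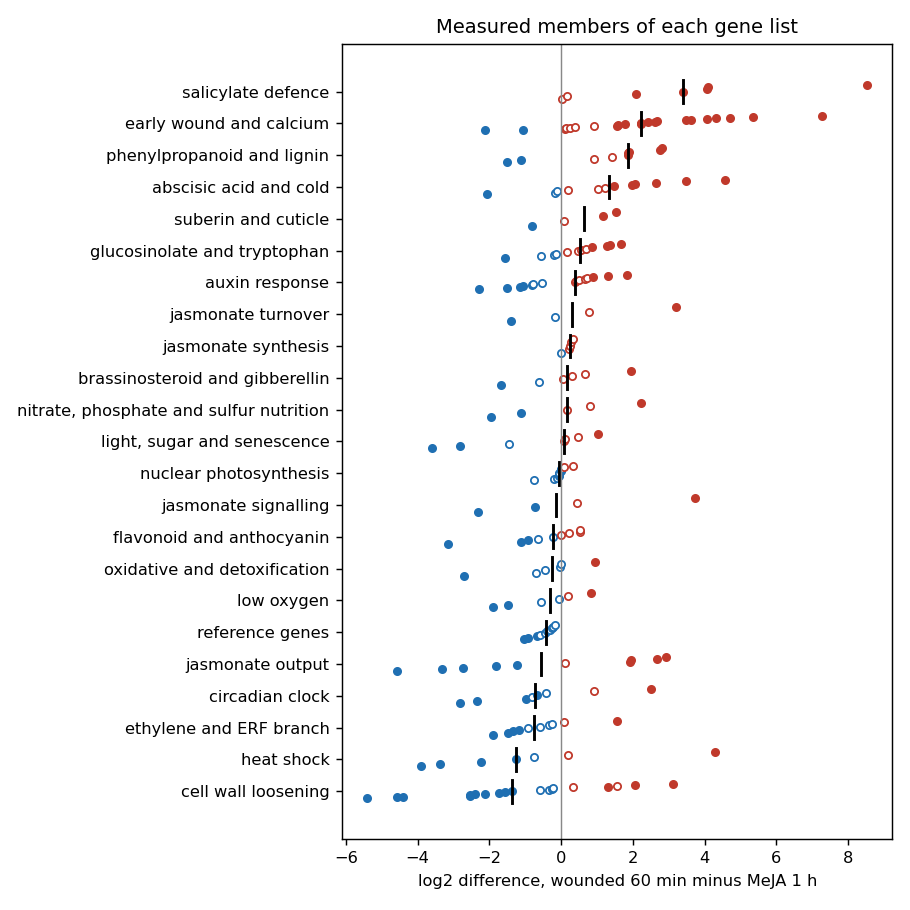
Log2 difference between wounded leaves and MeJA (x axis) for each measured member of the gene lists with at least 4 measured members other than the root and the trichome and guard cell markers (filled points called, open points not called). Black bars are medians, 2.24 for early wound and calcium, 3.40 for salicylate and −1.38 for cell wall loosening.

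Some genes fell with both treatments and further with wounding. The morning clock factor CCA1 was at 7.58 and 6.65 wounded, 10.09 and 9.79 with MeJA and 12.47 and 12.28 untreated, a difference of −2.82 ± 0.23 (adjusted p = 0.000317, limma). COL2, a clock-controlled CONSTANS-like gene, followed it at −2.35 ± 0.27. GI, an evening clock gene, was higher in wounded leaves by 2.50 ± 0.29, with 9.70 and 10.01 wounded, 7.08 and 7.62 with MeJA and 8.02 and 7.65 untreated. Of the 8 clock genes 4 were lower and 1 higher, against 19.9% and 13.7% of all named genes, and under poly-A scaling 2 were lower and 2 higher. With any of the 4 compared arrays left out 2 were lower. The hour at which each array was harvested is not among the labels used here, so its part was not tested. In flavonoid synthesis 3 of 9 genes (33.3%) were lower in wounded leaves and 0 higher, where 19.9% and 13.7% of all named genes were. Against untreated 7 fell with wounding and 8 with MeJA, where 16.1% and 15.8% of all probe sets fell. Under poly-A scaling, or with the Ri17 array with MeJA for 1 h left out, 1 was lower. F3H, the flavanone hydroxylase, called under each setting, had a difference of −3.14 ± 0.40, with 6.55 and 6.08 wounded, 9.83 and 9.09 with MeJA and 11.49 and 12.22 untreated. CHS, which starts the pathway, differed by 0.53 ± 0.85 and was not called.

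The remaining lists were mixed, and are to be read against 13.7% higher and 19.9% lower among all named genes, near which several of their shares lie. Auxin response had 3 genes higher and 5 lower of 15, the ethylene and ERF branch 1 and 4 of 10, low oxygen 1 and 2 of 6, light, sugar and senescence 1 and 2 of 7, and nutrition 1 and 2 of 5. HAT2, an auxin-induced homeodomain factor, was lower by 2.28 ± 0.32, and RAP2.2, an ERF of the low-oxygen response, by 1.91 ± 0.22. Brassinosteroid and gibberellin had 1 higher and 1 lower of 6, oxidative and detoxification 1 and 1 of 6, and suberin and cuticle 2 and 1 of 4. Tryptophan and glucosinolate synthesis had 4 higher and 1 lower of 12: TSB2, a tryptophan synthase subunit, was higher by 1.68 ± 0.20 and PAI1, of the same pathway, lower by 1.57 ± 0.21. Under poly-A scaling the ethylene list held 2 higher and 0 lower and the auxin list 8 higher and 2 lower. Without the Col-0 array with MeJA for 1 h the auxin list held 0 higher and 3 lower, and the ethylene list 0 and 1. Without the Ri17 one the auxin list held 1 and 2, the ethylene list 0 and 2, and tryptophan and glucosinolate synthesis 1 higher. Without the wounded Ri17 array the auxin list held 1 and 3 and the ethylene list 0 and 2, and without the wounded Col-0 array the auxin list held 1 and 6. In the lists with 7 or fewer members counts moved by up to 2 genes. Trichome and guard cell markers had 0 called of 4 (limma, 0 at an unadjusted p under 0.05; 2 higher under poly-A scaling). Stem, flower and seed markers had 2 higher of 3, and 0 without any of the compared arrays or either array wounded for 30 min.

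Of 10 genes often used as references, 3 were lower in wounded leaves, against 19.9% of all named genes: the actin gene ACT8 by 1.03, ACT2 by 0.92 and TIP41L by 0.66, and under poly-A scaling these came to −0.33, −0.22 and 0.03, none called. ACT2 lost its call without the Ri17 array with MeJA for 1 h (−0.85) or the wounded Ri17 array (−0.77), and TIP41L with any of 8 arrays left out (−0.58 to −0.75). Of 125 probe sets for cytosolic ribosomal proteins, found by description, 52 were lower (41.6%, against 20.3% of all probe sets) and 1 higher with a median of −0.72, and under poly-A scaling 5 were lower and 4 higher with a median of −0.02. With the Ri17 array with MeJA for 1 h left out 8 of them were lower, without the Col-0 one 6, without either array wounded for 60 min 14 or 16, and without either MeJA 4 h array 34.

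Set against untreated leaves, the called probe sets fell into classes. Wounding alone raised 674 of them (12.7%) and lowered 762 (14.4%), and MeJA alone raised 1070 (20.2%) and lowered 703 (13.3%). Another 724 (13.7%) moved the same way with both treatments but unequally, 231 (4.36%) moved in opposite ways, and 1140 (21.5%) differed between treatments without a call against untreated in either. Beyond these, 1357 of the 15382 probe sets tested were called the same way with both treatments with no difference called between them. Both comparisons with untreated leaves use the same untreated arrays, so an error in those arrays moves both the same way. The 724 and the 1357 therefore do not measure a response shared by the treatments. Of the 231, 143 rose with wounding and fell with MeJA, CML40, PUB19 and WRKY6 among them, and 88 went the other way, AT4G21870 among them. Without the Ri17 array with MeJA for 1 h, 328 were raised and 341 lowered with MeJA alone, 310 were lowered by wounding alone, 83 were opposite, 237 unequal and 296 in neither. Without the Col-0 one these counts were 455, 357, 461, 102, 265 and 500. Without the wounded Ri17 array wounding alone raised 411 and lowered 324, MeJA alone raised 706, and 142 were opposite, 408 unequal and 441 in neither. Without the wounded Col-0 array 653 were in neither, and without the untreated Col-0 or Ri17 array 2129 or 2003 were in neither and 136 or 117 opposite. A missing call against untreated does not show that a gene did not respond. Calls with MeJA against untreated cannot be told apart from a difference in array processing, as set out with the poly-A controls.

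Genes raised by wounding alone were led by AT5G52050, a DTX-type efflux carrier gene, at 11.79 and 12.51 wounded, 7.33 and 6.48 with MeJA and 6.60 and 6.58 untreated. It was followed by AT4G39670, CML37, COR15B and AT5G15190. Under poly-A scaling AT4G39670 (−2.23), COR15B (−1.22) and AT5G15190 (−1.77) were also called lower with MeJA than untreated. Genes lowered by wounding alone were led by AT2G04795, at 8.64 and 7.81 wounded, 12.36 and 11.75 with MeJA and 12.04 and 11.69 untreated, a difference of −3.83 ± 0.28. IAGLU, which joins glucose to auxin, was in the same class, with 7.33 and 8.00 wounded, 10.27 and 10.91 with MeJA and 10.88 and 11.34 untreated (−2.92 ± 0.24). Under poly-A scaling it too was called lower with MeJA than untreated (−1.19). For both genes the MeJA and untreated arrays lay together and the wounded arrays below them. Among genes that moved the same way but unequally, AT5G65300 rose by 5.85 with wounding and 1.56 with MeJA.

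Many of these differences were also there at the other times. Comparing all 4 wounded arrays (30 and 60 min) with all 4 MeJA arrays (1 and 4 h), 2007 probe sets (13.0%) were higher on every wounded array and 3164 (20.6%) on every MeJA array. Of the 2184 called higher at 1 h, 1415 (64.8%) were separated in this way, and of the 3120 called lower, 1942 (62.2%). The arrays set apart here include the 4 that were compared for the calls, and the others were also in the fit. These shares are therefore no independent check at the other times. The untreated arrays lay with or over the wounded arrays for 1043 of the 2007, and within or under the MeJA arrays for 632. Of the 3164, the untreated arrays lay with the wounded arrays for 1624 and with the MeJA arrays for 807. CML40 was at 12.10 and 13.02 at 30 min and at the floor in both genotypes after 4 h of MeJA. ORA47 was at 12.50 and 12.34 at 30 min and at 6.78 and 6.58 after 4 h of MeJA. XTH33 stood at 7.30 and 5.24 at 30 min and at 8.25 and 7.36 after 4 h of MeJA, without overlap. For HSP70 the sides overlapped once 4 h was counted, with 10.98 and 11.52 after 4 h of MeJA against 11.29 in wounded Ri17 at 60 min.

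**Figure D5:**
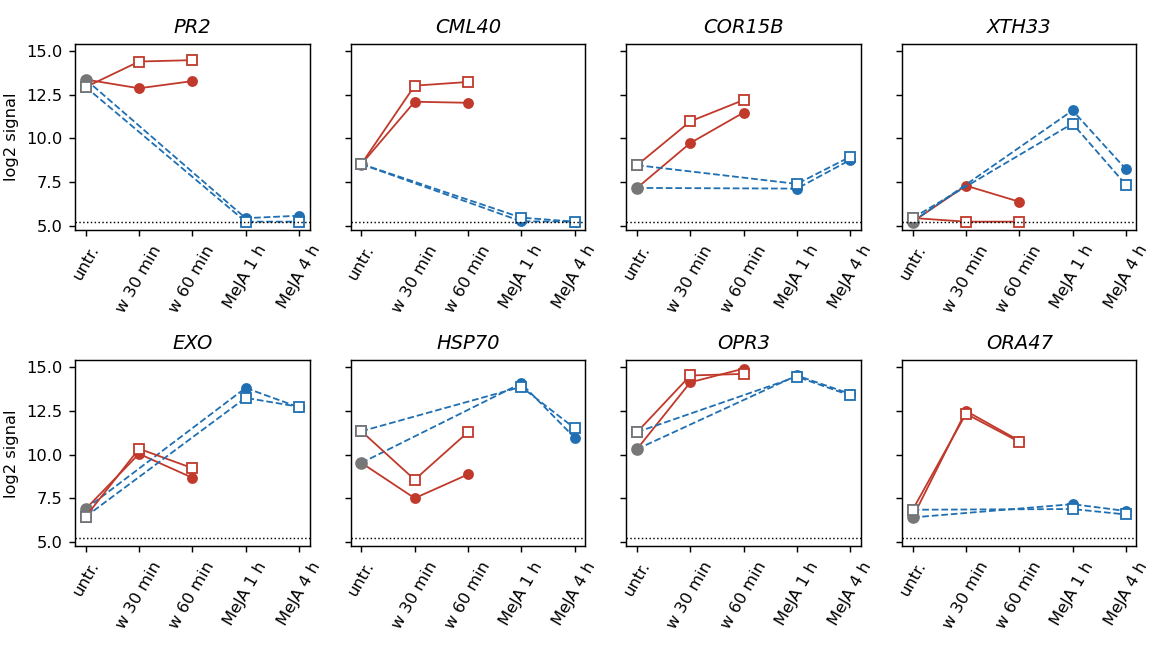
Log2 signal (y axis) of 8 genes over the 5 conditions (x axis), with filled points for Col-0, open points for Ri17, and lines from untreated through the wounding times (solid) and the MeJA times (dashed). The dotted line is the floor of 5.24. CML40 and ORA47 are high at both wounding times and low at both MeJA times, and EXO is higher at both MeJA times.

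The genotypes are set side by side without a test, because each had 1 array per condition. At a difference of 1 or more with the gene Present on the higher array, 1824 probe sets were higher in wounded Col-0 and 1784 lower, against 2030 and 2422 in Ri17. In both genotypes 1398 (9.09%) were higher and 1226 (7.97%) lower, and 15 (0.0975%) were opposite. Median differences were −0.09 in Col-0 and −0.22 in Ri17. AT5G20790 had the largest opposite difference among the 4 of these with a named gene: 5.55 wounded and 8.90 with MeJA in Col-0, but 10.98 and 8.26 in Ri17. The others were AT1G61260 (−1.74 in Col-0 and 1.54 in Ri17), TINY2 (1.32 and −1.07) and AT4G21310 (1.31 and −1.04).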

How the data were processed

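ATH1 arrays of 10 samples were used. The deposited values are 1-colour signal intensities with detection calls, made by the authors with GCOS per the submitters' processing notes (no version given in the sources used here); no further step is given in the sources used here. On every array the mean signal after a 2% trim at each end was 500.1. Present calls numbered 12971 to 13905 per array (56.9% to 61.0%). The series table and the sample tables held the same values (largest difference 0). The number of arrays limits the precision.

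Signals were floored at 37.7, the 75th percentile of signals called Absent, and turned to log2. Of 22810 probe sets (64 controls left out of the tests), 15382 Present on at least 2 of 10 arrays were kept. The platform annotation gave 13513 probe sets 1 gene (13436 found in the TAIR10.1 gene table), 503 several and 8794 none. Another 134 were named from descriptions. Kept probe sets named 8447 genes, each by its probe set of highest mean signal. limma 3.58.1 in R 4.3.3 fitted genotype and condition as additive terms over all 10 arrays. Python 3.11.15 was used for the rest. On simulated arrays of this comparison, 30 of 100 probe sets changed by 1 and 97 of 100 changed by 2 (log2) were called, none with the wrong sign, and 9 of 136 calls were false. The simulated arrays had independent noise and no genotype effect, other condition effect or shift between arrays. Only probe sets with a mean signal above the median were changed, so these rates need not hold for the real arrays.

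Genes named are the 12 highest and 12 lowest called differences with the same sign in both genotypes, up to 4 per list and 5 per class by size, and all measured jasmonate genes. The 27 lists hold 879 entries, 259 with a named probe set and 223 kept. Members, lists and tests were chosen with earlier results of these data known. Other named genes, chiefly further list members and examples from description groups, were chosen after their values were seen. Alternatives covered scaling, floor, detection filter, variance model, arrays in the fit, the genotype term and each array left out. Poly-A scaling was added after seeing the data. JAZ genes and JAV1 had no named probe set and were not analysed here.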

Additional observations from a re-analysis of the deposited data

Results flagged for a closer look

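AT5G20790 went in opposite directions in the genotypes. Its log2 signal in wounded leaves minus that with MeJA was −3.36 in Col-0 and 2.72 in Ri17, with 1 array per genotype and condition. The difference between the genotypes was not tested. Untreated arrays read 11.81 in Col-0 and 9.62 in Ri17.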

How the results depend on the processing

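The comparison was paired by genotype, since each genotype and condition had 1 array and the labels carry no replicate numbers. Leaving out the genotype term gave 5370 called probe sets against 5304.

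A fit on the 4 compared arrays alone, with 1 residual degree of freedom, called 802 probe sets, 541 higher and 261 lower in wounded leaves. Centring on poly-A controls gave 6036 higher and 864 lower, 261 raised with MeJA alone, 220 lowered by wounding alone, 3325 lowered with MeJA alone and 461 opposite. In both genotypes 2831 were then higher and 352 lower by 1 or more, and over both times 5756 were above on wounded arrays and 648 on MeJA arrays. TIP41L reversed from −0.66 to 0.03. Centring on hybridization controls gave 1038 and 5681 over both times. Without the detection filter 142 were opposite and 474 unequal, and with the floor at the median Absent signal 24 differed in sign between genotypes. The causes were not tested. Quantile normalisation, median centring, no floor, a moderated variance with trend, and the 8 treated arrays kept each of these counts that they gave within 1.5 times.

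With each array left out, 2083 to 5733 probe sets were called, 1140 to 2344 higher and 943 to 3389 lower. Wounding alone raised 411 to 720 and lowered 310 to 737, MeJA alone raised 328 to 1048 and lowered 341 to 796, 83 to 268 were opposite, 237 to 638 unequal and 296 to 2129 in neither. Of 169 named differences, 50 lost their call with at least 1 array left out, 20 under poly-A scaling and 74 in the fit on 4 arrays. Signals near the floor limit what can be seen: differences there are bounds.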
